A study of Mus musculus with 16 samples.

Results

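Cap1, Pam, Tcf21, Htra3 and BC018473 are 5 mouse genes that lie on other chromosomes than Rag1 and Rag2 and whose lung transcript levels lay higher on all 8 arrays labelled BALB-RAG than on all 8 arrays labelled BALB/c. They were chosen by platform symbol for that separation, which was seen on these same arrays, so the difference between the lines is described here without a test. They are 5 of 9866 genes with a named probe set. All 5 were among the 7276 genes tested, which had to exceed log2 4, taken as background, on at least 4 of the 16 arrays. BC018473 passed that filter through the BALB-RAG arrays alone.

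The arrays measured whole lung RNA of mice in an asthma model, with 4 arrays in each of 4 groups. The groups were BALB-RAG mice given ovalbumin (OVA, an egg protein used as allergen), BALB-RAG mice given phosphate-buffered saline (PBS), BALB/c mice given OVA and BALB/c mice given PBS. All lungs were taken on day 22, a day after exposure ended. The line is known from the sample titles, and the labels state neither which Rag gene was altered in BALB-RAG mice, nor by which allele, nor the animals' age or sex. Rag proteins cut DNA to assemble antigen receptors, and mice deprived of either protein form no mature lymphocytes of the T or B lineage. Whether the replicates of a group were separate animals is not stated, so the p-values speak of the spread between these arrays and that spread may be technical. In whole lung, fewer cells of a type and less RNA per cell cannot be told apart.

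The products of the 5 genes have different textbook roles. Cap1, cyclase-associated protein, binds actin monomers, reloads them with ATP and helps cofilin take filaments apart, so it serves actin turnover in most cells. Pam, peptidylglycine alpha-amidating monooxygenase, is the copper-dependent enzyme of secretory granules that gives many peptide hormones their amidated end. Tcf21 is a basic helix-loop-helix transcription factor of mesenchymal cells that is needed for lung and kidney development and binds E-box sequences together with partner proteins. Htra3 is a secreted serine protease of the HtrA family, a family known to dampen TGF-beta signalling. BC018473 carries the name of a cDNA clone, and RefSeq lists it as a long non-coding RNA.

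Because Tcf21 itself is an E-box factor, the promoters of the genes are shown with each E-box, CANNTG, in capitals. The windows run from 250 bases before to 50 bases after the gene start, 5′ to 3′ on the gene's strand, from RefSeq on GRCm38.p6, which is not a BALB/c genome. RefSeq's table held 4 of the 5 genes. The windows are chr4:122886027-122886326 on the minus strand for Cap1, chr1:98095597-98095896 on the minus strand for Pam, chr10:22820094-22820393 on the minus strand for Tcf21 and chr5:35679731-35680030 on the minus strand for Htra3.
Cap1: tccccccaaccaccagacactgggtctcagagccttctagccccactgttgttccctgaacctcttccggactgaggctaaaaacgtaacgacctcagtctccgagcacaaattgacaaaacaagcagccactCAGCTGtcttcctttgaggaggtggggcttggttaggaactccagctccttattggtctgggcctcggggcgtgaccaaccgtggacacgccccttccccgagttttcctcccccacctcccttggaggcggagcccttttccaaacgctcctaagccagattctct
Pam: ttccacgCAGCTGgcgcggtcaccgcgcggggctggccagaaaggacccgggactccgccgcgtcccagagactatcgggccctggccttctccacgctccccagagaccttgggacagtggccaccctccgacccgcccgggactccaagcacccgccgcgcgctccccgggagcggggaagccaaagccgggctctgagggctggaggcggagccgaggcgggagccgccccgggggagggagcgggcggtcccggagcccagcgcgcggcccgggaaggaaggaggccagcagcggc
Tcf21: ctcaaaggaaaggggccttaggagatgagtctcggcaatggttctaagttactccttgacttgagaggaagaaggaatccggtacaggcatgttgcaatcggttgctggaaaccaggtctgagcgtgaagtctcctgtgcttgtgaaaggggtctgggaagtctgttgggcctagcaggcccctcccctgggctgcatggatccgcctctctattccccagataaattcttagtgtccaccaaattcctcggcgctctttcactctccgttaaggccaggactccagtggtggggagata
Htra3: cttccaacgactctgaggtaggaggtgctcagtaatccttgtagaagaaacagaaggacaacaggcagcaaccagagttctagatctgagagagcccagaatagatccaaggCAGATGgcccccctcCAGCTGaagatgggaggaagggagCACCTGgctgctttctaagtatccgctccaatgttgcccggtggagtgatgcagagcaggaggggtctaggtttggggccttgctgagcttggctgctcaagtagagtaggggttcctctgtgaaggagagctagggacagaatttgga
CANNTG reads the same on both strands, and no match overlapped another. The Cap1 window holds 1 E-box, CAGCTG, which starts at position 134 counted from 1 at the 5′ end. The Pam window holds 1, also CAGCTG, at position 8. The Htra3 window holds 3, at positions 113, 128 and 152, among them a CAGCTG, and the Tcf21 window holds 0. Of 32851 promoter windows of the same length, 72.3% hold at least 1 CANNTG, with a median of 1, so a match is common and is given only as a description.

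Several facts of the whole data set touch these genes. Rag2 lay between 2.84 and 3.28 on the log2 scale on all arrays except replicate 1 of BALB-RAG PBS, where it was 4.20, so its level at background checks no label. T cell transcripts, as the mean log2 level of 14 tested marker genes, spanned 3.49 to 5.05 on BALB-RAG OVA arrays, with replicate 2 the high one, and 4.30 to 4.63 on BALB-RAG PBS arrays. The same mean spanned 5.0 to 6.40 on BALB/c OVA arrays and 4.27 to 4.60 on BALB/c PBS arrays. T cell transcripts on the 4 BALB-RAG PBS arrays were thus not below the BALB/c PBS range, which goes against their titles. That range itself lay near background, with 4 to 6 of the 14 markers under log2 4 on each BALB/c PBS array. Replicate 2 of BALB-RAG OVA lay above it, which also goes against its title. B cell markers (12 tested) averaged 3.79 to 5.96 and 4.91 to 5.30 on BALB-RAG arrays given OVA and PBS, against 6.86 to 7.86 and 5.80 to 6.22 on BALB/c arrays given OVA and PBS. B cell markers on the BALB-RAG PBS arrays thus lay below the BALB/c PBS range, which goes with the titles. They still lay above those of BALB-RAG OVA replicates 1, 3 and 4, at 3.79, 3.88 and 3.95. Replicate 2 of BALB-RAG OVA, at 5.96, lay within the BALB/c PBS range, which goes against its title. Plasma cell markers (6 tested) on the BALB-RAG PBS arrays did not lie below that range, at 7.35 to 8.39 on BALB-RAG PBS and 6.86 to 7.77 on BALB/c PBS arrays. Groups are named by their titles below. Sex did not divide the lines: Xist stayed between 2.54 and 3.32 and the Y-linked Eif2s3y between 8.12 and 9.39 on all 16 arrays.

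The separation of the lines was shared by few of the genes tested. The 8 BALB-RAG arrays lay entirely above or entirely below the 8 BALB/c arrays for 153 of 7276 genes (2.1%), with BALB-RAG above for 67 of them (0.921%). All 5 genes are among the 67 because they were chosen so, and nothing is read from that count. The gap is the distance between the nearest arrays of the lines, here the lowest BALB-RAG value minus the highest BALB/c value. All 8 BALB/c values of BC018473 are at background, so gaps were ranked with values under log2 4 set to 4. Cap1 then ranked 2, BC018473 3, Pam 4, Htra3 19 and Tcf21 25 among the 7276 genes. By the size of the mean difference on that scale the ranks were 7 for Cap1, 9 for BC018473, 25 for Pam, 187 for Tcf21 and 193 for Htra3, where BC018473's rank rests on a lower bound. The ranks use the same values for which the genes were chosen, so they are a description only. The widest gap of all was that of Tmem87a, 3.05 on the log2 scale, and the next after Pam was that of Hlf, 1.11.

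**Figure D1:**
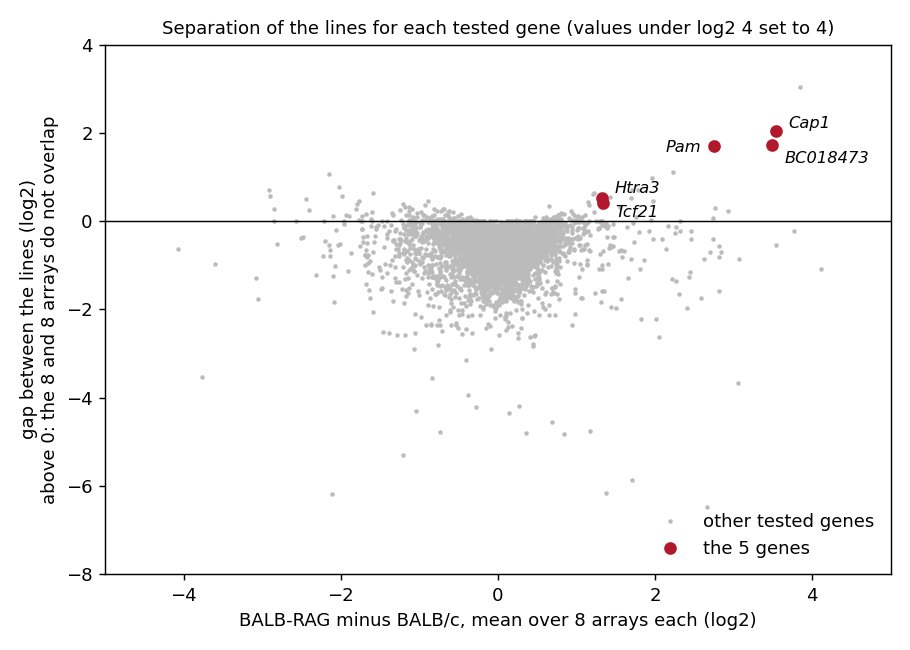
Each point is a tested gene, with the mean log2 level on 8 BALB-RAG arrays minus that on 8 BALB/c arrays on the horizontal axis and the gap between the lines (log2) on the vertical axis, both with values under log2 4 set to 4, where gaps above 0 mean that the arrays of the lines do not overlap. Cap1, BC018473 and Pam, with gaps of 2.04, at least 1.73 and 1.69, stand clear of most genes, while Htra3 and Tcf21, with gaps of 0.52 and 0.41, lie just above the line at 0.

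Cap1, the actin regulator, had log2 levels of 9.40, 10.41, 10.39 and 9.31 on the BALB-RAG OVA arrays (replicates 1 to 4). The BALB-RAG PBS arrays read 10.32, 9.45, 9.37 and 10.43. BALB/c OVA lungs had 5.11, 7.27, 6.74 and 7.03, and BALB/c PBS lungs had 5.70, 6.37, 7.05 and 5.47. All 8 BALB-RAG values lay above all 8 BALB/c values by at least 2.04, and within each line the OVA and PBS arrays overlapped. Group means were 9.88 ± 0.60 (BALB-RAG OVA), 9.89 ± 0.56 (BALB-RAG PBS), 6.54 ± 0.98 (BALB/c OVA) and 6.15 ± 0.71 (BALB/c PBS; SD, n = 4 each). The mean difference between the lines was 3.54 on the log2 scale, or 11.7-fold. It was 10.1-fold after OVA and 13.4-fold after PBS. The BALB-RAG values fell into a lower cluster of 4 arrays, 9.31 to 9.45, and a higher cluster of 4 arrays, 10.32 to 10.43, with arrays of both exposures in each.

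The other Cap1 probe set, a separate set of probes for the same gene, separated the lines as well. Its levels were 8.62 to 10.17 on BALB-RAG arrays and 3.52 to 6.59 on BALB/c arrays, which left a gap of 2.03 and a mean difference of 3.71. Over 16 arrays the levels of the probe sets correlated at Pearson's r of 0.98 and their deviations from group means at 0.86, on the same RNA. OVA moved Cap1 in neither line past the test. The OVA minus PBS difference was -0.02 ± 0.47 in BALB-RAG lungs (SE, limma with Benjamini-Hochberg adjustment over 7276 genes, adjusted p = 0.9994) and 0.39 ± 0.47 in BALB/c lungs (adjusted p = 0.6729). The BALB-RAG response minus the BALB/c response was -0.41 ± 0.66 (limma adjusted p = 0.8058).

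**Figure D2:**
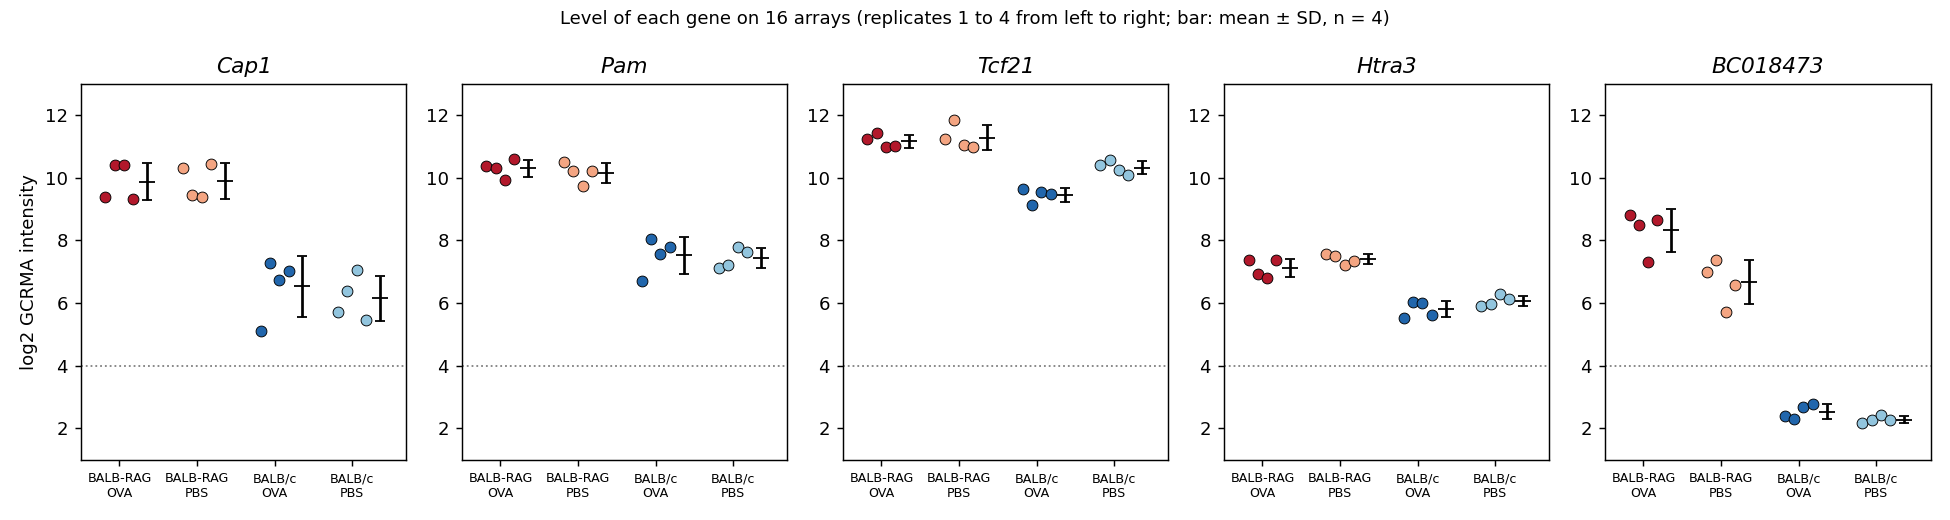
The vertical axis gives the log2 GCRMA intensity of each gene on the 16 arrays, in a panel per gene and a column per group (4 arrays each, replicates 1 to 4 from left to right), with the mean ± SD beside the points and a dotted line at log2 4. In every panel the BALB-RAG points lie above the BALB/c points, and only for Tcf21 do the BALB/c OVA points lie wholly below the BALB/c PBS points.

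Pam, the amidating enzyme, had log2 levels of 10.36, 10.30, 9.92 and 10.60 on BALB-RAG OVA arrays. Those on BALB-RAG PBS arrays were 10.50, 10.20, 9.73 and 10.20. BALB/c OVA lungs had 6.69, 8.03, 7.56 and 7.79, and BALB/c PBS lungs had 7.13, 7.20, 7.79 and 7.63. The lines were 1.69 apart at their nearest arrays, and OVA and PBS arrays of a line overlapped. The means were 10.29 ± 0.28 and 10.16 ± 0.32 in BALB-RAG lungs given OVA and PBS, and 7.52 ± 0.59 and 7.44 ± 0.32 in BALB/c lungs given OVA and PBS (SD, n = 4 each). The line difference was 2.75 on the log2 scale over 8 arrays each, or 6.72-fold, and differed little between the exposures, at 6.84-fold after OVA and 6.59-fold after PBS.

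Pam's response to OVA was near 0 in both lines. It was 0.14 ± 0.26 in BALB-RAG lungs (SE, limma adjusted p = 0.993) and 0.08 ± 0.26 in BALB/c lungs (adjusted p = 0.8951), and the difference of the responses was 0.05 ± 0.37 (adjusted p = 0.964). A single probe set of Pam was placed.

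Htra3, the secreted protease, had log2 levels of 7.37, 6.92, 6.80 and 7.38 on BALB-RAG OVA arrays. The PBS arrays of that line read 7.58, 7.51, 7.20 and 7.33. BALB/c OVA lungs had 5.53, 6.04, 6.00 and 5.63, and BALB/c PBS lungs had 5.89, 5.98, 6.28 and 6.12. Every BALB-RAG array was above every BALB/c array, by at least 0.52, while the OVA and PBS arrays overlapped in each line. Means were 7.12 ± 0.30 and 7.40 ± 0.17 in BALB-RAG lungs given OVA and PBS, and 5.80 ± 0.25 and 6.07 ± 0.17 in BALB/c lungs given OVA and PBS (SD, n = 4 each). The lines differed by 1.33 on the log2 scale, or 2.51-fold, and the fold was nearly the same after OVA (2.50-fold) and after PBS (2.53-fold).

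OVA values of Htra3 averaged slightly below PBS values in both lines, and neither difference passed the test. The OVA minus PBS difference was -0.29 ± 0.17 in BALB-RAG lungs (SE, limma adjusted p = 0.7794) and -0.27 ± 0.17 in BALB/c lungs (adjusted p = 0.339). The difference of the responses was -0.02 ± 0.24 (adjusted p = 0.9832). A further Htra3 probe set disagreed with the line difference. It was under log2 4 on all 8 BALB-RAG arrays and on 7 of 8 BALB/c arrays, with a range of 2.62 to 4.17, so it did not measure the transcript above background.

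Tcf21, the mesenchymal transcription factor, was the only 1 of the 5 whose level changed with OVA past the test, and it did so in BALB/c lungs. Log2 levels were 11.22, 11.42, 10.99 and 11.01 on BALB-RAG OVA arrays and 11.23, 11.84, 11.04 and 10.99 on BALB-RAG PBS arrays. In BALB/c lungs they were 9.64, 9.13, 9.54 and 9.47 after OVA and 10.39, 10.58, 10.25 and 10.07 after PBS. The BALB-RAG groups overlapped, all 4 BALB/c OVA arrays lay below all 4 BALB/c PBS arrays, and the BALB/c PBS arrays came within 0.41 of the lowest BALB-RAG array. Means were 11.16 ± 0.20 and 11.28 ± 0.39 in BALB-RAG lungs given OVA and PBS, and 9.45 ± 0.22 and 10.32 ± 0.21 in BALB/c lungs given OVA and PBS (SD, n = 4 each). The line difference over 8 arrays each was 1.34 on the log2 scale, or 2.52-fold, with 3.29-fold after OVA and 1.94-fold after PBS.

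In BALB/c lungs Tcf21 fell by 0.88 on the log2 scale after OVA (SE 0.19, 1.84-fold, limma adjusted p = 0.004639). In BALB-RAG lungs the OVA minus PBS difference was -0.11 ± 0.19 (adjusted p = 0.9879). The responses differed by 0.76 ± 0.27, which did not pass (adjusted p = 0.09379, unadjusted p = 0.01131). Without replicate 2 of BALB-RAG PBS, the highest Tcf21 array, that difference was 0.95 and passed (adjusted p = 0.01936), and without replicate 2 of BALB-RAG OVA, whose T cell transcripts go against its title, it was 0.68 (adjusted p = 0.1603). Each is the highest Tcf21 array of its group. Leaving out the PBS array had to widen the difference, and leaving out the OVA array had to narrow it. The difference of the responses crossed the threshold only through such a forced change here, so nothing is read from that pass. Over replicates 1 and 2 alone the BALB/c difference was -1.10, and over replicates 3 and 4 alone it was -0.66; limma called both (adjusted p = 0.02993 and 0.0429).

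BC018473, the long non-coding RNA, was above background on the BALB-RAG arrays alone. Log2 levels were 8.80, 8.49, 7.31 and 8.66 on BALB-RAG OVA arrays and 6.99, 7.37, 5.73 and 6.58 on BALB-RAG PBS arrays. In BALB/c lungs they were 2.38, 2.30, 2.67 and 2.79 after OVA and 2.18, 2.28, 2.42 and 2.26 after PBS. All 8 BALB/c values were under log2 4 and give only a bound. Means were 8.32 ± 0.68 and 6.67 ± 0.71 in BALB-RAG lungs given OVA and PBS, against 2.53 ± 0.23 and 2.28 ± 0.10 in BALB/c lungs given OVA and PBS (SD, n = 4 each). With values under log2 4 set to 4, the transcript was at least 19.9-fold higher in BALB-RAG lungs than in BALB/c lungs after OVA and at least 6.36-fold higher after PBS.

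Within the BALB-RAG line, the OVA arrays of BC018473 averaged 1.65 ± 0.33 above the PBS arrays on the log2 scale (SE, 3.13-fold), just short of the threshold (limma adjusted p = 0.05344, unadjusted p = 0.0001384). The ranges touched: the lowest OVA array, replicate 3, read 7.31 and the highest PBS array, replicate 2, read 7.37. Leaving out that OVA array gave 1.98 (limma adjusted p = 0.01092) and leaving out that PBS array gave 1.88 (adjusted p = 0.023). Each lies nearest the other exposure, so leaving it out had to widen the difference. Leaving out the lowest PBS array (5.73) or the highest OVA array (8.80) has to narrow it. The calls gained by leaving out an array are thus not read as a response to OVA. Without BALB-RAG OVA replicate 2, whose T cell transcripts go against its title, the difference was 1.59 (adjusted p = 0.08321). All 8 BALB/c values lie below background, so the response there, and with it the difference of the responses, was not measured.

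The placement of BC018473 values needs a caution. Its probe set label lies in a stretch of the table where the labels belong to values 47 rows below, judged by how probe sets of the same gene follow each other. With values taken 47 rows above instead, the line difference was 0.16 after OVA and -0.70 after PBS. The median correlation of same-gene probe set pairs in that stretch was 0.609 with the placement used and 0.00829 with the opposite. A further BC018473 probe set was at background on all 16 arrays, between 2.48 and 3.12.

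**Figure D3:**
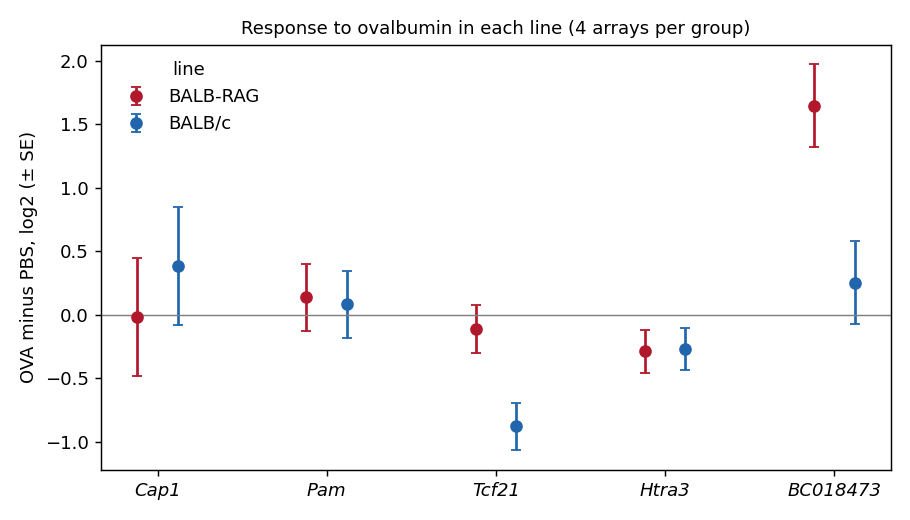
The vertical axis gives the OVA minus PBS difference on the log2 scale with its SE, for each gene in BALB-RAG (red) and BALB/c (blue) lungs, with 4 arrays per group. The Tcf21 difference in BALB/c lungs, -0.88, is the only one past the test, and the BC018473 difference in BALB-RAG lungs, 1.65, falls just short of it, while its BALB/c point is a difference of values at background.

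Counts over the 5 genes were as follows. In BALB-RAG lungs 0 of 5 passed limma's test between OVA and PBS (1 of 5 at an unadjusted p under 0.05), where 0.165% of all tested genes passed. In BALB/c lungs 1 of 5 passed, against 15.5% of all tested genes, and that 1, Tcf21, was lower, as were 6.78% of all tested genes. For the difference of the responses, 0 of 5 passed (2 of 5 at an unadjusted p under 0.05, one of them BC018473, whose BALB/c values are at background), against 8.49% of all tested genes. With the replicate number as a block, Tcf21 passed for that difference (limma adjusted p = 0.04594), although pairing by single number was not shown. For BC018473 that difference was not measured, so its p-value under the block is not read. The medians over the 5 genes were -0.02, 0.08 and 0.05 in these comparisons, beside medians over all tested genes of 0.02, 2.2e-05 and 0.01. These counts of 5 lie near the background, and nothing about the genes as a set is read from them. The same block let 1764 genes pass in BALB/c lungs instead of 1128, and Tcf21 was still the only 1 of the 5 (limma adjusted p = 0.002478).

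The order of the 4 group means differed among the 5 genes. In BALB-RAG lungs the mean was higher after PBS for Cap1, Tcf21 and Htra3, and after OVA for Pam and BC018473. In BALB/c lungs it was higher after OVA for Cap1 and Pam and after PBS for Tcf21 and Htra3, with BC018473 at background. Both BALB-RAG groups lay above both BALB/c groups without overlap in each case, as the genes were chosen to do. Neighbours within a line overlapped, except the BALB/c groups of Tcf21. Without replicate 2 of BALB-RAG OVA, whose T cell transcripts go against its title, the line difference after OVA was 3.16 for Cap1, 2.77 for Pam, 1.63 for Tcf21 and 1.38 for Htra3 on the log2 scale, against 3.34, 2.78, 1.72 and 1.32 with it. Its sign was fixed by the choice of the genes. The 4 BALB-RAG PBS arrays, whose T cell transcripts were also not below the BALB/c PBS range, cannot be left out of a comparison after PBS. The 3 remaining BALB-RAG OVA arrays did not overlap the 8 BALB/c arrays for 673 genes, against 153 with all 8 BALB-RAG arrays. With fewer arrays this count can only stay or rise, so nothing is read from the increase.

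Across arrays the 5 genes also varied unequally within their groups. The correlations that follow are descriptions over 16 arrays that share the line difference and the RNA of each array. Over all tested genes, deviations from group means also split replicates 1 and 2 from replicates 3 and 4. The deviations from group means of Pam and Htra3 went together in both lines, with an r of 0.82 over the 8 BALB-RAG arrays and 0.75 over the 8 BALB/c arrays. For Cap1 and Pam the r was -0.02 over BALB-RAG and 0.81 over BALB/c arrays, and for Cap1 and Htra3 it was -0.52 and 0.65. For Tcf21 and Pam it was 0.22 over BALB-RAG and -0.75 over BALB/c arrays, for Tcf21 and Htra3 it was 0.22 and -0.62, and for Cap1 and Tcf21 -0.18 and -0.31. The sign thus differed between the lines for 4 of these 6 pairs, over 8 arrays each, and the difference was not tested. BC018473 was measured on BALB-RAG arrays alone, where its deviations had an r of 0.85 with Pam, 0.81 with Htra3, 0.64 with Tcf21 and -0.24 with Cap1.

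The tested genes whose levels followed each gene most closely were largely other genes that separate the lines. For Cap1 they were Pam (r = 0.96 over 16 arrays), Tmem87a (0.95) and Myocd (0.94), the smooth and cardiac muscle coactivator. For Pam they were Myocd (0.97), Tmem87a (0.97) and BC018473 (0.96). For Htra3 they were Pam (0.95), Myocd (0.93) and Dkk3 (0.92), a secreted Dickkopf family protein. For BC018473 they were Pam (0.96), Tmem87a (0.96) and Hlf (0.94), a PAR bZIP transcription factor. Tcf21 kept other company, with Thrsp (0.94), a lipogenic regulator, Ndn (0.94), the gene of necdin, and Adipoq (0.93), the adipocyte hormone adiponectin.

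The most opposed genes were Asah1 for Cap1 (r = -0.94), Disp2 for Pam (-0.95) and for BC018473 (-0.95), Ero1b for Tcf21 (-0.96) and Stk17b for Htra3 (-0.97). Once group means were taken out, the closest genes changed. They were Lif (0.75) and Ubxn10 (0.74) for Cap1, Dtx3 (0.86) and Wipi1 (0.83) for Pam, and Dtx3 (0.81) and Pam (0.75) for Htra3. Tcf21 deviated with Ifi27l2a (0.90) and Alox12 (0.87), and BC018473 with Apobec2 (0.91), a striated muscle protein, and Col17a1 (0.89), the BALB/c values of BC018473 being at background.

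Adipose transcripts moved with the line, and with some of the genes. The mean log2 level of 6 tested adipose genes was 7.33 to 9.06 on BALB-RAG OVA arrays, 7.23 to 10.02 on BALB-RAG PBS arrays, 5.21 to 5.90 on BALB/c OVA arrays and 6.07 to 7.43 on BALB/c PBS arrays. After OVA 5 of the 6 were higher in BALB-RAG lungs (23.8% of all tested genes passed in either direction), and after PBS 4 of the 6 were (3.9% of all tested genes), with 0 lower. Of these 4, Fabp4, a fatty acid carrier of adipocytes, lost its call after PBS without any of BALB-RAG PBS replicates 1, 2 or 4 or BALB/c PBS replicates 3 or 4 (adjusted p = 0.06081 to 0.07912, against 0.02352 with all arrays). With replicates 3 and 4 only, Ucp1, Thrsp and Fabp4 all lost their calls after PBS (limma adjusted p = 0.3438, 0.3125 and 0.1656). They were still 2.62, 2.38 and 2.67 higher there on the log2 scale. Adipoq averaged 9.26 and 9.34 in BALB-RAG lungs given OVA and PBS, against 4.51 and 6.83 in BALB/c lungs given OVA and PBS. Over the 8 BALB-RAG arrays, the deviations of the adipose mean from its group means had an r of 0.96 with those of BC018473, 0.82 with Pam, 0.66 with Htra3, 0.63 with Tcf21 and 0.01 with Cap1. Over the 8 BALB/c arrays, where BC018473 was at background, the r was -0.29 with Pam, -0.35 with Htra3, 0.42 with Tcf21 and 0.06 with Cap1. Adipose levels of the lines overlapped on single arrays: BALB-RAG PBS replicate 3, at 7.23, lay below BALB/c PBS replicate 2, at 7.43. Tcf21 read 11.04 against 10.58 on these arrays and BC018473 read 5.73 against 2.28. The choice of the genes fixed that order for any array of each line, so nothing is read from it.

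The decrease of Tcf21 in BALB/c lungs after OVA ran beside lower adipose transcripts, of which 2 of 6 passed. Adipoq fell by 2.32 on the log2 scale (limma adjusted p = 0.02325), though its adjusted p was 0.0708 without BALB/c PBS replicate 2, 0.0701 without BALB/c OVA replicate 3 and 0.0534 without BALB/c OVA replicate 4. Striated muscle transcripts (11 tested) averaged 6.12 to 9.86 and 6.49 to 9.77 on BALB-RAG arrays given OVA and PBS, and 5.05 to 5.57 and 5.67 to 9.01 on BALB/c arrays given OVA and PBS. Over the 8 BALB-RAG arrays their deviations had an r of 0.91 with Htra3, 0.87 with BC018473, 0.67 with Pam, 0.48 with Tcf21 and -0.63 with Cap1. Over the 8 BALB/c arrays the r was -0.41 with Htra3, -0.25 with Pam, 0.19 with Tcf21 and -0.12 with Cap1, with BC018473 at background. The part of adipose or muscle tissue in the levels of the 5 genes was not tested.

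**Figure D4:**
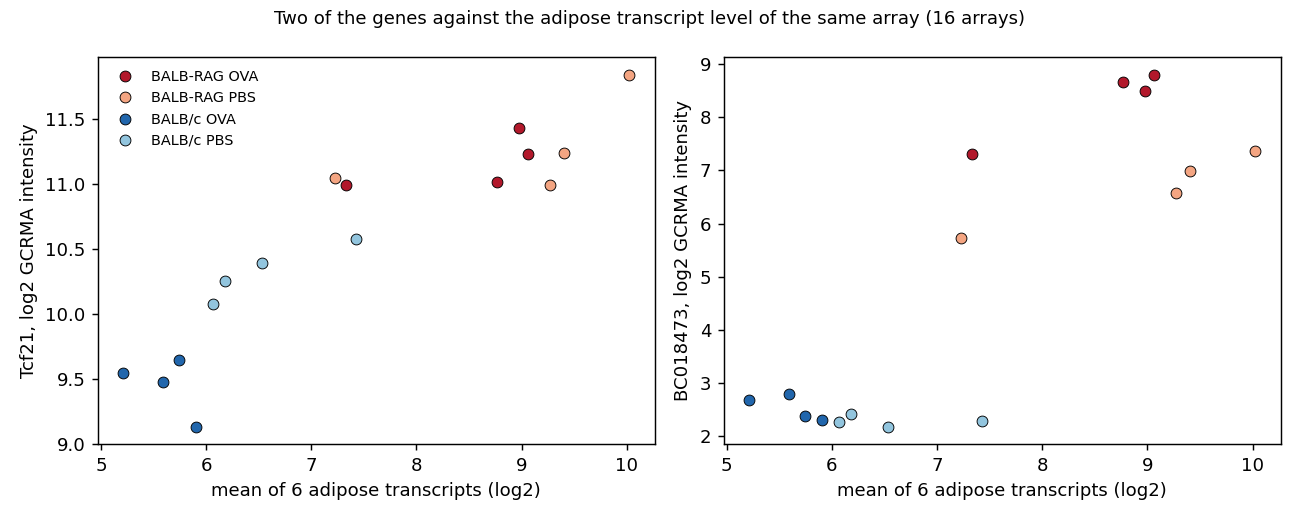
The log2 GCRMA intensity of Tcf21 (left) and BC018473 (right) on the vertical axes is set against the mean log2 level of 6 adipose transcripts of the same array, for 16 arrays coloured by group. Adipose levels reach 10.02 on a BALB-RAG PBS array and 7.43 on BALB/c PBS replicate 2, the BALB/c array highest in adipose transcripts. That the lines do not overlap on the vertical axes was fixed by the choice of the genes.

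Genes next to the 5 were looked at for the same separation. Among the 10 RefSeq genes on each side of each gene, 100 in all, 14 were tested. The lines overlapped for all 14, so 0 of 14 separated, where 2.1% of all tested genes did. Limma called 4 of the 14 between the lines after OVA (23.8% of all tested genes) and 1 of the 14 after PBS (3.9% of all tested genes, 284 genes, or 609 with the replicate number as a block). The median line difference of the 14 was 0.10 on the log2 scale. Beside Cap1, Ppt1 differed by 0.12, Mycl by 0.44 and Trit1 by 0.03. Beside Pam, Ppip5k2 differed by 0.24 and Macir by -0.23, and beside Tcf21, Slc2a12 differed by 0.25 and Tbpl1 by 0.09.

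Beside Htra3 the differences were -0.44 for Acox3, -0.17 for Sh3tc1 and -0.28 for Sorcs2. The neighbours of BC018473 varied most. Cygb, a cytoglobin gene, was 0.99 higher in BALB-RAG lungs over both exposures, with 1.50 ± 0.29 after PBS (SE, limma adjusted p = 0.009381) and 0.47 ± 0.29 after OVA (adjusted p = 0.276). The 3 others passed after OVA: St6galnac2 was 0.92 higher (limma adjusted p = 0.008318), Srsf2 0.54 higher (adjusted p = 0.02313), and Rhbdf2 differed by -0.85 (adjusted p = 0.004432). Over both exposures they differed by 0.79, 0.55 and -0.69. The remaining call after OVA was Sorcs2 beside Htra3 (adjusted p = 0.004216). By chromosome, 21 of the 153 separating genes lay on chromosome 2 with Rag1 and Rag2, which is 3.75% of the 560 genes tested there. The 5 genes lie on chromosomes 4 (Cap1), 1 (Pam), 10 (Tcf21), 5 (Htra3) and 11 (BC018473).

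**Figure D5:**
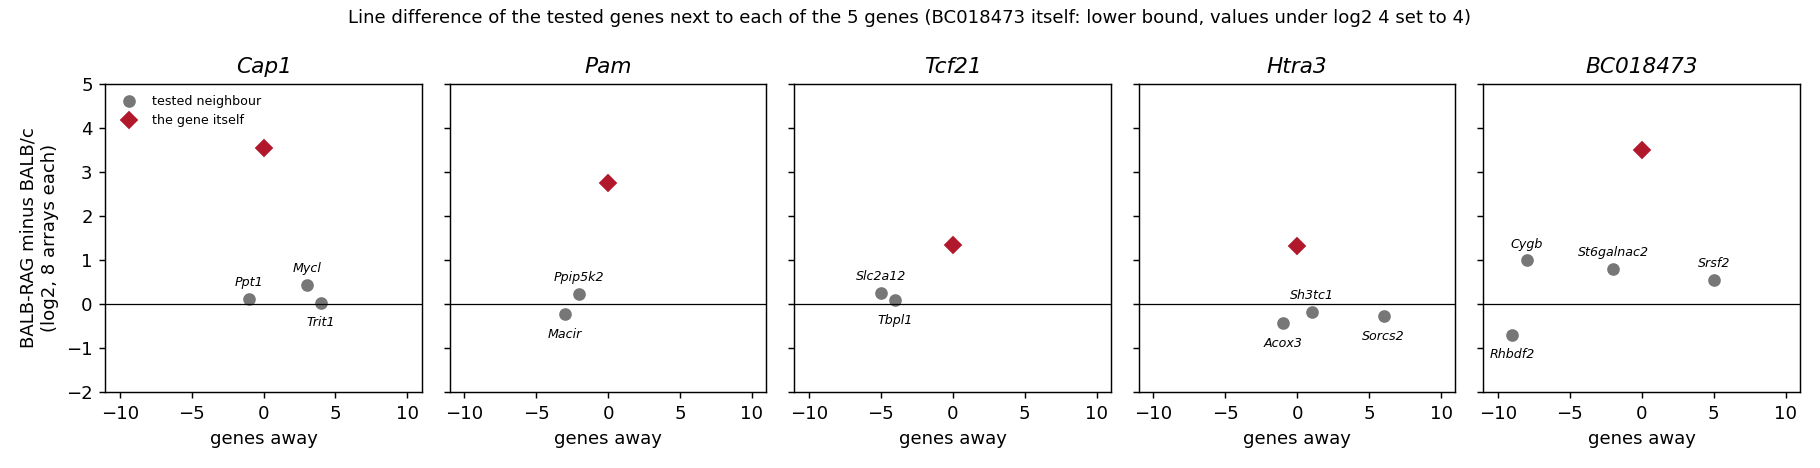
The vertical axis gives the mean log2 level on 8 BALB-RAG arrays minus that on 8 BALB/c arrays, for each of the 5 genes (red diamond) and its tested neighbours (grey), placed by how many RefSeq genes away they lie. The diamonds of 4 genes range from 1.33 to 3.54, that of BC018473 is a lower bound of 3.49 with values under log2 4 set to 4, and the neighbours range from -0.69 to 0.99.

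Other genes of the same pathways were counted from lists chosen by function, with earlier results of these data known. Over all tested genes, 0.165% passed between OVA and PBS in BALB-RAG lungs and 15.5% in BALB/c lungs, and 23.8% passed between the lines after OVA and 3.9% after PBS. The Tcf21 list held 33 tested genes of lung mesenchyme and of Tcf21 partners. In BALB-RAG lungs 0 passed between OVA and PBS (6 at an unadjusted p under 0.05), and in BALB/c lungs 4 rose and 11 fell. The median change in BALB/c lungs was -0.47, beside 2.2e-05 over all tested genes. Like Tcf21, Foxf1, a forkhead factor of lung mesenchyme, fell by 1.13 on the log2 scale in BALB/c lungs (SE 0.17, limma adjusted p = 0.0003992). Matrix genes went the other way there, with Fn1, fibronectin, at 1.08 ± 0.15 and Col1a2, a collagen chain, at 1.60 ± 0.22 (limma adjusted p = 0.0001437 and 0.0001815). The Tcf21 list thus held members that rose and members that fell.

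Between the lines the mesenchyme list leaned to BALB-RAG. After OVA 16 of 33 were higher and 5 lower, with a median of 0.65, and after PBS 7 were higher and 1 lower, with a median of 0.24. The medians over all tested genes were 0.01 and -0.01. Tbx4 and Tbx2, T-box factors of the lung bud mesenchyme, were 1.10 and 1.48 higher after OVA (SE 0.15 and 0.20, limma adjusted p = 7.999e-05 and 8.342e-05), and Ogn, osteoglycin, was 1.43 higher (SE 0.19, adjusted p = 7.226e-05). The 1 lower gene after PBS was Meox1, at -1.57 ± 0.17 (SE, limma adjusted p = 0.0001093). On 3 of the 4 BALB-RAG PBS arrays Meox1 was under log2 4. The lines did not overlap for 3 of the 33, beside 2.1% of all tested genes. For the difference of the responses 7 passed as higher and 5 as lower, where 8.49% of all tested genes passed in either direction. Among those lower were Col1a2 at -2.63 and Col1a1 at -2.78 (SE 0.32 and 0.41, limma adjusted p = 0.000111 and 0.0005697).

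The Htra3 list held 35 tested genes of HtrA proteases and TGF-beta signalling. In BALB-RAG lungs 0 passed between OVA and PBS (8 at an unadjusted p under 0.05). In BALB/c lungs 2 rose and 7 fell, with a median of -0.27, beside 2.2e-05 over all tested genes. Tgfbi, a matrix protein induced by TGF-beta, rose by 1.91 ± 0.21 (limma adjusted p = 2.323e-05), while Eng, the endothelial co-receptor endoglin, fell by 0.96 on the log2 scale (SE 0.17, adjusted p = 0.0009366). Between the lines 8 were higher and 3 lower in BALB-RAG lungs after OVA, and 1 was higher after PBS. Tgfbr3, the co-receptor betaglycan, was 2.00 higher after OVA (SE 0.28, adjusted p = 0.0001011), while Tgfbi differed by -1.52 ± 0.21 (adjusted p = 8.901e-05). The list's medians between the lines were 0.15 after OVA and 0.03 after PBS, beside 0.01 and -0.01 over all tested genes.

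The Cap1 list held 29 tested genes of actin turnover. In BALB-RAG lungs 0 passed between OVA and PBS (1 at an unadjusted p under 0.05), and in BALB/c lungs 6 rose and 2 fell. Lcp1, the leukocyte actin bundler, rose by 0.99 ± 0.17 there (limma adjusted p = 0.0009321), and Tmod1, which caps filament ends, fell by 1.09 on the log2 scale (SE 0.20, adjusted p = 0.001341). Between the lines 6 were higher and 7 lower after OVA, and 2 were higher and 1 lower after PBS, with medians of -0.08 and -0.07. Dstn, the cofilin relative destrin, was 0.68 lower in BALB-RAG lungs after PBS (log2 difference -0.68, SE 0.11, adjusted p = 0.002069). The actin genes as a list showed no shared direction between the lines.

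The Pam list held 57 genes of peptide amidation and prohormone processing, of which 41 were placed and 20 tested. In BALB-RAG lungs 0 passed between OVA and PBS (1 at an unadjusted p under 0.05), and in BALB/c lungs 4 fell and 0 rose. Ramp2, which forms the receptor of the amidated peptide adrenomedullin with Calcrl, fell by 0.99 on the log2 scale (SE 0.24, limma adjusted p = 0.01086). Between the lines 5 were higher and 2 lower after OVA, and 1 was higher after PBS, with medians of 0.04 and -0.06. Cpe, the carboxypeptidase that trims prohormones before Pam acts, was 1.32 ± 0.21 higher in BALB-RAG lungs after OVA (adjusted p = 0.000261).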

How the data were processed

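Per the labels' protocols, TRIZOL was used to extract RNA, of which 6 µg served to make biotinylated cRNA. Per the submitters' processing notes, the authors used GCRMA, version not stated. Deposited values are linear intensity from 2.32 to 35181, with array medians of 18.2 to 20.5. Log2 was taken and nothing further was normalised. No columns were identical, 0 columns belonged to no sample, and 4 arrays per group limit the precision.

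The members and lists were chosen with earlier results of these data known. Probe set labels of the deposited table do not belong to the values beside them in 3 long stretches, which no document of the submitters describes. Within them 14300 of 45101 labels were moved to other rows and the rest were dropped. Median correlations of same-gene probe set pairs were 0.673, 0.609 and 0.616 as placed, against 0.0929, 0.0709 and 0.0534 as deposited. The second stretch was moved 47 rows below, since 47 rows above gave 0.00829; the choice was made after seeing the data.

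A single symbol was listed for 34958 labels, several for 932 and none for 9211, and 0 symbols changed through RefSeq. The probe set with the highest mean stood for a gene. Limma 3.58.1 in R 4.3.3, tested on simulated data, fitted 4 group means to 16 arrays over 7276 genes (12 residual degrees of freedom), with Benjamini-Hochberg adjustment at 0.05. Named genes are the 5, Rag1 and Rag2, the most alike genes (the 3 highest and the lowest by level, the 2 highest by deviation), up to 3 list genes with the smallest p per comparison, and tested neighbours. The Rag1 probe set lies outside the stretches and was not used here.

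Replicate numbers come from the titles. Deviations from group means of same-numbered arrays had an r over 0.1 in 23 of 24 pairs of groups (median 0.30, against -0.24 for other numbers). The exception, 0.03, was number 2 of BALB-RAG OVA and PBS. Arrays of other numbers also went together within replicates 1 and 2 and within replicates 3 and 4. For example, the r of BALB-RAG PBS replicate 2 was 0.48 with BALB/c PBS replicate 1, 0.34 with replicate 2 and -0.41 with replicate 3. The numbers thus mark a split of replicates 1 and 2 from 3 and 4, and pairing by single number was not shown. The replicate block is given as an alternative only. Alternatives were filters, a floor, quantile normalisation, probe set means, the replicate block, replicates 1 and 2 against 3 and 4, a trended robust prior and leaving out each array.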

Additional observations from a re-analysis of the deposited data

How the results depend on the processing

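The decrease of Tcf21 in BALB/c lungs after OVA passed under all alternatives run, at -0.66 to -1.10. The replicate block changed the call of no BALB/c result of the 5 genes. It gave 41 genes for OVA in BALB-RAG lungs, 1764 in BALB/c lungs, 1152 for the difference of responses and 609 between the lines after PBS. A term for replicates 1 and 2 against 3 and 4 gave 67, 1820, 1214 and 635. Replicates 1 and 2 only gave 3 genes for OVA in BALB-RAG lungs and 1412 separating genes. Replicates 3 and 4 only gave 5 for OVA in BALB-RAG lungs, 547 in BALB/c lungs, 212 for the difference of responses, 52 between the lines after PBS, 693 after OVA and 733 separating genes. Quantile normalisation gave 26 and probe set means 21 for OVA in BALB-RAG lungs, and BALB-RAG OVA replicates 1, 3 and 4 alone gave 673 separating genes. Leaving out arrays can only keep or raise the count of separating genes. Leaving out an array in turn gave 6 to 42, 790 to 1168, 414 to 687, 174 to 397 (lines after PBS), 1332 to 1799 (lines after OVA) and 160 to 223 (separating genes). Arrays that moved a count most were, for OVA in BALB-RAG lungs, BALB-RAG OVA replicates 1 (7), 2 (42), 3 (7) and 4 (6), BALB-RAG PBS replicate 1 (6) and BALB/c OVA replicate 3 (24), and between the lines after PBS, BALB-RAG PBS replicate 1 (174) and BALB/c PBS replicates 1 (184) and 2 (185). Signal at background leaves BC018473 in BALB/c lungs and the second Htra3 and BC018473 probe sets unmeasured.

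The BC018473 response in BALB-RAG lungs passed with a floor at log2 4 (adjusted p = 0.04523), quantile normalisation (0.03956), the block (0.03652) and the term (0.02842). Its difference of responses has no measured BALB/c side. For Tcf21 the difference of responses passed with the block (0.04594) and the term (0.03123). Probe set means lowered the line difference of Htra3 to 0.48 after OVA and 0.73 after PBS.

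Values near 0 that passed no test changed sign. With probe set means these were Cap1 in BALB-RAG lungs (0.011) and Htra3 in BALB/c lungs (0.0051). With replicates 1 and 2 only they were Cap1 (0.014) and Pam (-0.021) in BALB-RAG lungs and the Pam difference of responses (-0.22). With replicates 3 and 4 only they were Pam in BALB/c lungs (-0.030) and the Htra3 difference of responses (0.21). Leaving out an array gave -0.19 to 0.17 for Cap1, -0.0061 to 0.26 for Pam and -0.21 to 0.074 for Tcf21 in BALB-RAG lungs, -0.087 to 0.36 for Pam in BALB/c lungs, and -0.22 to 0.22 for Pam and -0.10 to 0.088 for Htra3 as differences of responses. The cause was not tested.

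With the second stretch placed 47 rows above, an alternative added after seeing the data, these changed sign: in BALB/c lungs BC018473 (-0.43), Adipoq (0.71), Fn1 (-0.28), Col1a2 (-1.41) and Tmod1 (0.98); as differences of responses Fn1 (0.091), Col1a1 (0.11) and Tmod1 (-0.80); between the lines after PBS BC018473 (-0.70) and Thrsp (-0.052); and after OVA Adipoq (-0.64), Tbx4 (-0.33), Tbx2 (-0.14) and Tmod1 (-0.32). That placement puts other probe sets' values under these names.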
